A study of Mus musculus with 12 samples.

Results

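The far intergenic peaks were regions of open chromatin annotated as intergenic that lay far from the nearest annotated gene start in a list pooled over 6 types of mouse blood cell. ATAC-seq, which reads out accessible DNA by where a transposase can cut it, had been run on 2 replicates of each of 6 sorted cell types, 12 samples in all, and the peaks of all samples had been merged into 1 master peak-list of 84243 regions of 499 bp each. A peak was taken as far intergenic when both annotation columns of the list called it intergenic and its centre was more than 100 kb from the nearest transcription start site (TSS) in either direction. There were 4345 such peaks, 5.16% of the master peak-list (95% Wilson interval 5.01 to 5.31%).

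All cells came from wild-type C57BL/6 mice aged 8 to 12 weeks, with no transgene or treatment. Hematopoietic stem cells (HSCs), megakaryocyte progenitors (MkPs), erythroid progenitors (EPs), granulocyte/macrophages (GMs) and B cells were sorted from bone marrow, and T cells were sorted from thymus. HSCs were the Flk2- Slamf1+ part of the cKit+ Lin- Sca1+ gate, EPs were CD71+, GMs were Gr1+ Mac1+, B cells were B220+ CD43-, and T cells were CD3+ CD25-. The list names no sample for any peak and holds no read counts, so it cannot be said in which of the 6 cell types a given far peak was open. For the same reason the sorted identities could not be checked against marker genes here, the depth of each sample is not known, and replicate error cannot be given for any value.

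Distal regulatory elements, or enhancers, are bound by transcription factors and act on promoters that can be very far away along the chromosome, through loops of the chromatin fiber. Open chromatin marks many of them, but also insulator sites bound by CTCF and starts of unannotated transcripts, and a peak alone does not tell these apart. Gene deserts are long stretches of genome with no known gene. Some flank developmental regulators and carry their enhancers, whereas others are poor in any known function.

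The sequences that follow show what far peaks look like at base level. For each of several transcription factor families, the chosen peak was the one farthest from a TSS whose centre lay within 50 bp of an exact match to the family's consensus. Each line gives 121 bases around the peak centre from the plus strand of mm10, 5′ to 3′, in lower case, with the matches to the named families in capitals. CTCF, the insulator protein, is shown by a peak 1467189 bp upstream of Slc10a2, at chr8:6572416-6572536. GATA factors, which drive erythroid, megakaryocyte and T cell genes, are shown by a peak 1231338 bp upstream of Gm15501, at chr7:94415454-94415574. The ETS example had the largest distance of all far peaks in the distance column of the list, 1501747 bp upstream of Slc10a2, at chr8:6606974-6607094. PU.1, the ETS factor of myeloid and B cells, is shown at chr6:26764879-26764999, 833513 bp downstream of Gm20756. RUNX, the family of the stem cell factor Runx1, is shown at chr11:10276347-10276467, 837609 bp upstream of Vwc2, where 3 sites stood in 3 copies of a short repeat unit. The same peak, 1285501 bp upstream of Adgrl3 at chr5:79735010-79735130, was the example for AP-1, for C/EBP and for one of the E-box forms, and its line marks all 3 sites. The IRF example, for the interferon regulatory factors, lay at chr1:141926968-141927088, 1270626 bp upstream of 4930590L20Rik.
CTCF: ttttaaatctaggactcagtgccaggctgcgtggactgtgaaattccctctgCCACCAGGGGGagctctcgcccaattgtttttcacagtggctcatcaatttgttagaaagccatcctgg
GATA: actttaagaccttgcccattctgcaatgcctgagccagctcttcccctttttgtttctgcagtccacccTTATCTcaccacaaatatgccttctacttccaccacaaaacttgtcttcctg
ETS: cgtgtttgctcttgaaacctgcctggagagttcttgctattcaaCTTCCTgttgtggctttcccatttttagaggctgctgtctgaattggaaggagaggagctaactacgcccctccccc
PU.1: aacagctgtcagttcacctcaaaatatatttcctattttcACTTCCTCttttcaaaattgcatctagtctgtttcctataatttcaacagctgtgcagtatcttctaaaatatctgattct
RUNX: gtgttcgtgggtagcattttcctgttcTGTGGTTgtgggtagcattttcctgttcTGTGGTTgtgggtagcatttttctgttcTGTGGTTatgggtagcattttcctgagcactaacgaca
AP-1, E-box and C/EBP: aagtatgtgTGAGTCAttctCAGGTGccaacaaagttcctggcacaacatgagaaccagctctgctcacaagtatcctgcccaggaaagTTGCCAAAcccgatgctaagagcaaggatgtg
IRF: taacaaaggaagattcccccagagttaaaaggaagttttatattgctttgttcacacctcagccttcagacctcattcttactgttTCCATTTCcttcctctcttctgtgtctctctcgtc

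A second set shows 4 neighboring far peaks at the densest point of the gap that held most far peaks, the desert beside Id2. Id2 encodes an inhibitor of E-box-binding factors that natural killer and innate lymphoid cells need. These peaks lay between 103932 and 119985 bp downstream of Gm17746, the nearest annotated start, at chr12:25233046-25233166, chr12:25240164-25240284, chr12:25241827-25241947 and chr12:25249099-25249219. Here any site of the 11 families searched is in capitals. Peaks 1 and 4 had an ETS site in the window, peak 2 had an AP-1 and a RUNX site, and peak 3 had none.
Id2 desert peak 1: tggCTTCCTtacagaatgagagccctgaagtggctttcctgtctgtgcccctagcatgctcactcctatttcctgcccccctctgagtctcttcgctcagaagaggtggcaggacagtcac
Id2 desert peak 2: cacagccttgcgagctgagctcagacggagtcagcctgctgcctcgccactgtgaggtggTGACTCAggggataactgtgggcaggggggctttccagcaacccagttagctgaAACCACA
Id2 desert peak 3: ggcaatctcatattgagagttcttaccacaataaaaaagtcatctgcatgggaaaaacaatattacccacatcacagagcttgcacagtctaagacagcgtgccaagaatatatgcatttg
Id2 desert peak 4: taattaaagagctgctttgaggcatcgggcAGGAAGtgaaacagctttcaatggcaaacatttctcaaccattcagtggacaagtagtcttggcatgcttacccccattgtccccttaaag

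Most far peaks were not extremely far. Their distances ran from 100034 to 1501747 bp with a median of 169114 bp, and the middle of the distribution, between the lower and upper quartile, spanned 126666 to 261853 bp. There were 1746 peaks (40.2%) between 100 and 150 kb, 1431 (32.9%) between 150 and 250 kb, 863 (19.9%) between 250 and 500 kb, 295 (6.79%) between 500 kb and 1 Mb and 10 (0.23%) beyond 1 Mb. Peaks lay about as often upstream of the nearest TSS (2133, 49.1%) as downstream (2212). Just inside the limit were a peak 100034 bp upstream of Ankrd55 and one 100069 bp downstream of Pik3r1, and just outside were intergenic peaks 99991 bp upstream of 4921513I03Rik and 99980 bp downstream of Cylc1.

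By the distance column the 5 peaks farthest from a TSS were the 2 beyond Slc10a2 (1501747 and 1467189 bp upstream), 1 that lay 1434555 bp downstream of A330008L17Rik, 1 that lay 1322039 bp upstream of the activin receptor gene Acvr2a and 1 that lay 1285501 bp upstream of the adhesion receptor gene Adgrl3. None of the 5 came within 1 Mb of a protein-coding start. Their nearest curated RefSeq start of any gene lay 773914 to 1434555 bp away. When RefSeq transcripts predicted by computation were counted as well, a start was found 124908 to 383072 bp from each of these peaks.

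The label "far intergenic" depends on which transcripts are counted. Of the 4345 peaks, 4291 (98.8%) were over 100 kb from every curated RefSeq start of a protein-coding gene, and 3848 (88.6%) from every curated start of any gene. Against all RefSeq transcripts, predicted ones included, only 1174 (27.0%) stayed over 100 kb away, and the median distance to the nearest start was 42912 bp. In all 645 peaks (14.8%) lay inside a predicted long non-coding RNA gene, and 102 were within 500 bp of the start of one. In the GENCODE M21 annotation 825 peaks (19.0%) lay inside a gene, 578 of them inside a long non-coding RNA gene. A set of 343 peaks (7.89%) was over 100 kb from every start in both annotations and inside no gene of either.

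The rule also leaves out peaks on repeats. By the first annotation column alone 5563 peaks were intergenic and over 100 kb away, and 1218 of these (21.9%) carried a repeat or CpG island in the detailed column, among them 635 on long terminal repeats, 282 on LINE and 143 on SINE elements. Peaks over 100 kb from a TSS also occurred inside genes. There were 9217 in all classes, of which 3538 were in introns.

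Open chromatin thinned out steadily with distance. Measured on curated RefSeq starts, intergenic sequence held 341 peaks per Mb within 1 kb of a start, 42.1 between 1 and 10 kb, 34.1 between 10 and 50 kb and 21.1 between 50 and 100 kb. Past the 100 kb limit the density was 10.6 peaks per Mb up to 250 kb, 4.04 up to 500 kb and 1.54 beyond. Far sequence made up 753 Mb and held 6.27 peaks per Mb, against 29.4 per Mb at 10 to 100 kb, a 4.69-fold difference. Per Mb of sequence not masked as repeat the density fell likewise, from 50.3 at 10 to 50 kb to 2.87 beyond 500 kb. These densities count peaks of every repeat class and cover all cell types together.

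**Figure D1:**
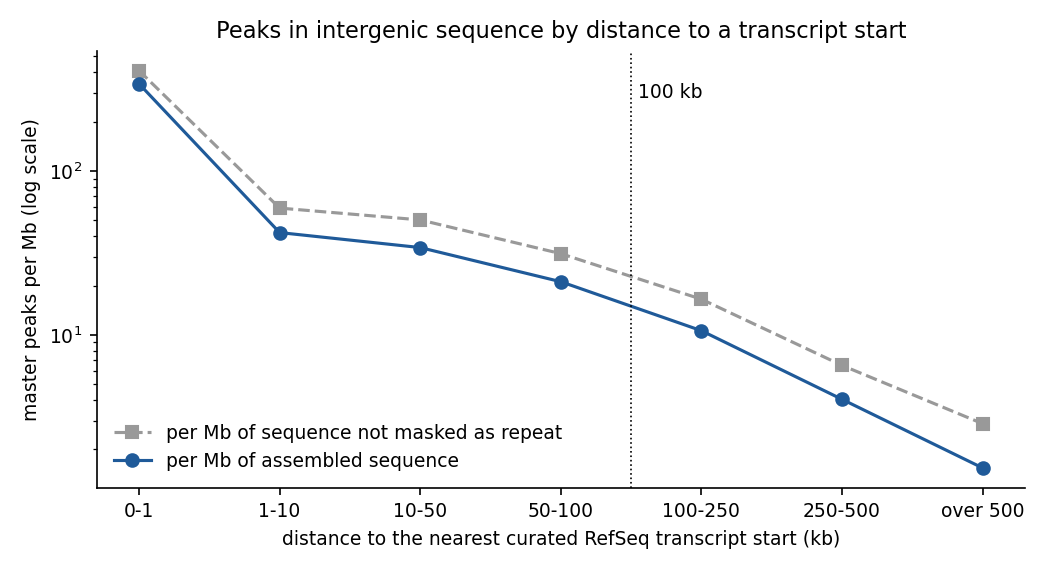
Master peaks per Mb of intergenic sequence (log scale) by distance to the nearest curated RefSeq start in kb, per Mb of assembled sequence (blue circles) and of sequence not masked as repeat (gray squares). Density fell in every step, from 341 peaks per Mb within 1 kb to 1.54 beyond 500 kb, and the dotted line marks the 100 kb limit.

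Chromosomes differed in how much far open chromatin they held. Counts ran from 62 far peaks on chromosome 19 to 332 on chromosome 13. As a share of a chromosome's peaks they ran from 2.43% on chromosome 19 to 8.5% on chromosome 12 among the autosomes, with 8.37% on chromosome 13. Of the 301 far peaks on chromosome 12, 76 lay inside the immunoglobulin heavy chain locus, whose gene segments the distance column does not count. Far sequence held 10.8 peaks per Mb on chromosome 10 and 10.4 on chromosome 13, but 2.01 on the X chromosome. No far peak lay on the Y chromosome, which has 73.1 Mb of far sequence and 11 peaks in the whole list. Reads that map to several places had been left out before peaks were called, and the part this plays on the repeat-rich Y chromosome was not tested. Without it the density of far sequence was 6.94 peaks per Mb.

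Whether most far peaks lay in gene deserts depended on how a desert is defined. Here a desert was defined as a gap of at least 500 kb of assembled sequence between neighboring curated genes. There were 630 such gaps covering 681 Mb, and 1758 far peaks (40.5%, 95% Wilson interval 39.0 to 41.9%) lay in them. The rule of over 100 kb from a TSS alone favors wide gaps, so this share is only a description. The share of other peaks in deserts is not given here. Another 2455 far peaks lay in shorter gaps, and nearly all of the others (126) inside a curated gene or antigen receptor segment. The share was 16.8% for deserts of at least 1 Mb and 72.4% for at least 250 kb, and it was 62.1% for gaps between protein-coding genes and 11.2% for gaps between all RefSeq genes.

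Far peaks were spread very unevenly over the deserts. The median desert held 1 far peak and the fullest held 34. The 63 fullest deserts held 885 far peaks, 50.3% of those in deserts, and 50 deserts held at least 10 each. At the other end 264 deserts (41.9%) had no far peak, and 164 had no peak of any class. All 51 deserts of the Y chromosome were without a far peak, as were 35 of 53 on the X chromosome and 178 of 526 (33.8%) on the autosomes.

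Longer deserts were emptier per Mb. The 389 deserts of 500 kb to 1 Mb held 3.79 far peaks per Mb, the 186 of 1 to 2 Mb held 2.51, and the 55 of 2 Mb or more held 0.623. Of these 55, 26 had no far peak. Among the longest deserts, the 4023 kb between Olfm4 and Gm32455 held 3 far peaks, the 3929 kb between Lrrc4c and Iftap held 4, all nearest to the recombinase gene Rag2 at one end, and the 3555 kb between the cadherin genes Cdh6 and Cdh9 held 2. The 3593 kb between Gm20268 and Cdh20 held none, and the 3521 kb between D3Ertd751e and 2610316D01Rik held no peak of any class.

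**Figure D2:**
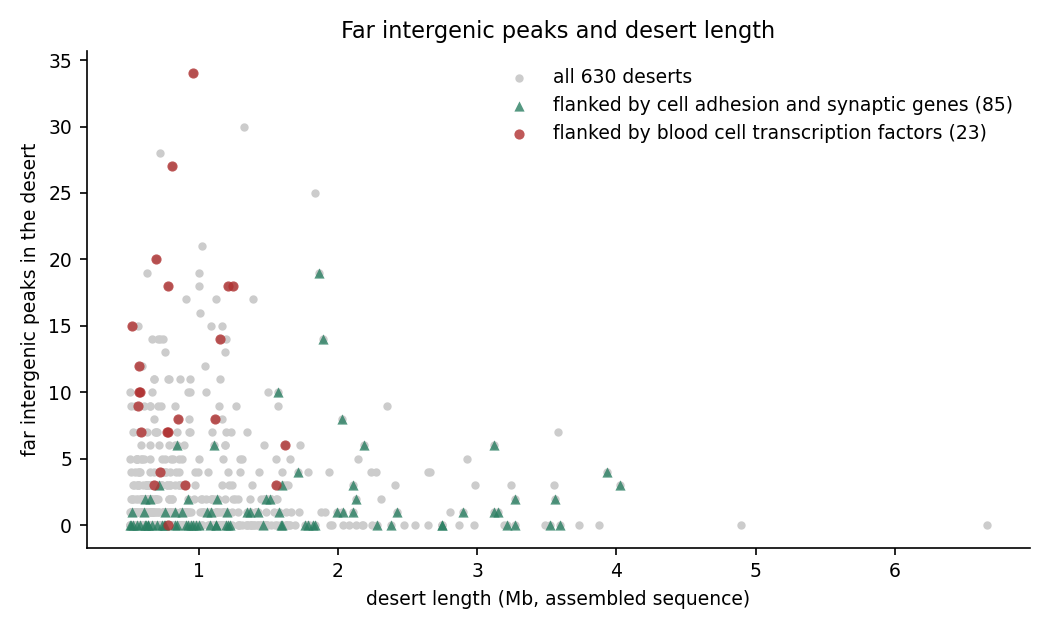
Far intergenic peaks in each of 630 gene deserts (vertical axis) against the assembled desert length in Mb (horizontal axis). Deserts whose nearest protein-coding gene on either side was a blood cell transcription factor gene are in red. Those assigned likewise to cell adhesion and synaptic genes are in green. The red points reach 34 far peaks at lengths of up to 1619 kb, whereas the deserts over 2 Mb held 0.623 far peaks per Mb.

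What flanked a desert went with how many far peaks it held. Each desert was assigned to a gene list when the nearest protein-coding gene on either side was on that list. Deserts flanked by blood cell transcription factor genes numbered 23, of which 22 had a far peak, with a median of 9 far peaks and 12.1 per Mb. For the 9 deserts flanked by receptor, cytokine and signaling genes of blood cells the median was 6 far peaks and 6.93 per Mb. For 30 deserts flanked by neural and developmental transcription factor genes it was 2.5 and 2.62. The 85 deserts flanked by cell adhesion and synaptic genes, whose products work mainly in neurons, had a median of 0 far peaks, and 42 of the 85 had any. Over all 630 deserts the median was 1 far peak and 1.07 per Mb. These include 51 deserts of the Y chromosome, all without a far peak, and 53 of the X chromosome. The 23 deserts beside blood cell transcription factors were all on autosomes, and no median over autosomes alone is given here. The lists were drawn up with earlier results on these peaks known, and these counts are given as a description with no test.

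The median desert length was 778 kb for the blood cell transcription factor group, 925 kb for the receptor group, 838 kb for the neural group and 1220 kb for the adhesion group, against 828 kb over all deserts. The part of length in the differences was not tested. Among the 23 deserts beside blood cell transcription factors, those with most far peaks lay beside Id2 (34), Mef2c (27), Ebf1 (20), Klf4 (18), Klf6 (18) and Runx1 (15), and a pair on either side of Myc held 18 and 14. Tox had deserts with 12 and 10, Zeb2 had 3 with 10, 6 and 4, Nr4a3 had 1 with 9, and Ets1 and Meis1 had 1 with 8 each. Bcl11b, Foxp1 and Maf had 1 with 7 each. A desert beside Gata3 and a second desert each of Klf6 and Mef2c held 3, and the 1 without a far peak lay beside Nfia. Beside means only that the factor was the nearest coding gene on a side, with other transcripts possibly in between. The Gata3 desert ended 910 kb from that gene, and the second Mef2c desert 806 kb from Mef2c. The Tox desert with 10 lay 582 kb away, and the Zeb2 deserts with 6 and 4 lay 1325 and 581 kb away.

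**Figure D3:**
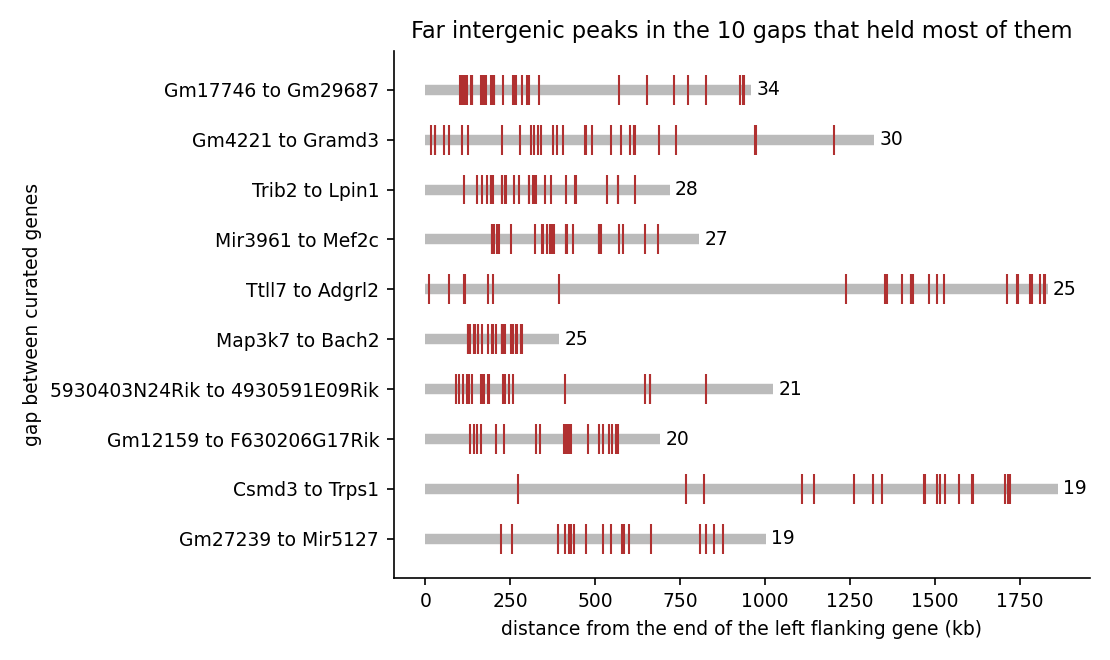
Positions of far intergenic peaks (red ticks) along the 10 gaps between curated genes that held most of them (gray bars), in kb from the end of the left flanking gene, with the number of far peaks at the right of each bar. In the first gap the peaks crowd toward the left, near Id2, and in the gap from Ttll7 to Adgrl2 they stand in a small group at the left and a larger one at the right, with an empty stretch between.

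The 10 gaps with most far peaks held 248 of them, 5.71% of all. First was the 960 kb desert on chromosome 12 between Gm17746 and Gm29687 with 34 far peaks, of which 26 had Gm17746 as nearest TSS, and Id2 was the nearest coding gene, 36 kb beyond the left end. Second was the 1322 kb desert between Gm4221 and Gramd3 on chromosome 18 with 30 far peaks, of which 25 were nearest to Zfp608, a zinc finger gene. Next came the 719 kb desert between Trib2, a pseudokinase gene, and Lpin1, a gene of lipid synthesis, with 28 far peaks at 38.9 per Mb, the densest of all deserts. It was followed by the 806 kb between Mir3961 and Mef2c on chromosome 13 with 27 far peaks. Mef2c encodes a transcription factor of lymphoid, myeloid and muscle cells.

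Of the other 6, the gap from Ttll7 to Adgrl2, an adhesion receptor gene, held 25 far peaks in 1832 kb. The 394 kb between Map3k7 and Bach2 is too short to count as a desert, yet it held 25 far peaks at 63.5 per Mb. Bach2 is a repressor that B and T cells need, and Map3k7 a kinase of cytokine signaling. A desert beside Marcks, between 5930403N24Rik and 4930591E09Rik, held 21. The one between Gm12159 and F630206G17Rik, with the B cell factor Ebf1 as nearest coding gene 109 kb beyond its left end, held 20. The deserts from Csmd3 to Trps1 and from Gm27239 to Mir5127, beside Sall3, held 19 each. Trps1, a GATA-type repressor gene, was nearest to 16 of the 19 peaks of its desert and Csmd3, a synaptic gene, to 3. Sall3 encodes a transcription factor of the nervous system and was nearest to 9.

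Nearest genes were concentrated as well. The 4345 far peaks had 1396 different genes as nearest TSS, 7.33% of the 19040 genes that are nearest to any peak of the list. Of these, 562 had 1 far peak, 544 had at least 3 and 73 had at least 10, and the 73 together accounted for 1069 far peaks (24.6%). The nearest TSS belonged to a protein-coding gene for 3094 far peaks (71.2%) and to a non-coding RNA gene for 1153 (26.5%), with 262 nearest to a microRNA gene.

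The 15 genes with most far peaks were mixed in kind. Rprl1, an RNA gene, had 53 and the pseudogene 4930515G16Rik had 30, all inside the immunoglobulin kappa locus. Mir6388 and Mir7094-2 had 29 and 20, all inside the heavy chain locus. Outside antigen receptor loci Zfp608 had 31, Gm17746 had 26, Tbl1xr1, a corepressor gene, had 25, Adgrl2 had 23, Trib2 had 21, Gm1653 had 19, Trps1 had 19, Ly86, which encodes a partner of an innate immune receptor of B cells, had 18, Cdh26 had 17, Jun, the AP-1 subunit gene, had 17, and Marcks had 17. The 17 peaks of Jun were all upstream of it, from 102 to 251 kb, and the 25 of Tbl1xr1 also, from 111 to 808 kb.

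A group of 212 far peaks (4.88%) lay inside the antigen receptor loci, which B and T cells rearrange. There were 97 in Igk, 76 in Igh, 5 in Igl, 25 in Tcra/Tcrd, 5 in Tcrb and 4 in Tcrg, and none was over 100 kb from the start of a gene segment. In Igk the median distance to a segment start was 552 bp, and in Igh 361 bp. The distance column of the list does not count segment starts as TSSs, and 62.7% of all peaks in these loci were far peaks by the rule. The other 4133 far peaks lay outside the loci.

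A minority of blood cell transcription factor genes had far peaks by nearest TSS, and most of those had several. Of 70 genes on the list, 19 (27.1%) were nearest TSS to a far peak and 14 (20%) to at least 3. Over all genes that are nearest to any peak, the shares were 7.33% and 2.86%. Bach2 and Prdm1, the regulators of the B cell to plasma cell switch, had 16 each, all upstream, at 110 to 210 kb and 131 to 272 kb. Klf4, a factor of monocytes, had 14 between 106 and 592 kb upstream. Maf, a factor of macrophages and T cells, had 12, with 9 of them downstream, and Mef2c had 11 upstream, from 121 to 392 kb.

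Runx1, which blood stem cells need to form, had 9 far peaks, all upstream, at 102, 121, 154, 183, 194, 203, 208, 225 and 257 kb. Gata3, a T cell factor, had 8, all downstream, at 129, 185, 187, 190, 197, 283, 285 and 314 kb. Meis1, a stem cell factor, had 6 downstream at 141, 144, 200.3, 205, 265 and 386 kb. Zeb2 had 6 upstream, all within 119 to 162 kb. For 13 of the 14 genes with at least 3 far peaks by nearest TSS, all of them stood on a single side of the gene. Maf was the exception. Assignment by nearest TSS gives peaks on the other side to any transcript that lies nearer. On the upstream side of Meis1, the 8 far peaks of the desert beside it were all nearest to 4933406G16Rik or Spred2. How often far peaks of other genes stood on a single side is not given here.

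Of the remaining genes on this list, Tox, a factor of developing T cells, had 7 far peaks, Lef1, Foxp1 and Ikzf2 had 4 each, and Nr4a3 had 3. A further 5 had 1 or 2, and 51 of the 70 had none by nearest TSS. This measure misses genes with other transcripts in between. Id2, Myc and Ebf1 were nearest TSS to 0 far peaks although the deserts beside them held many.

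**Figure D4:**
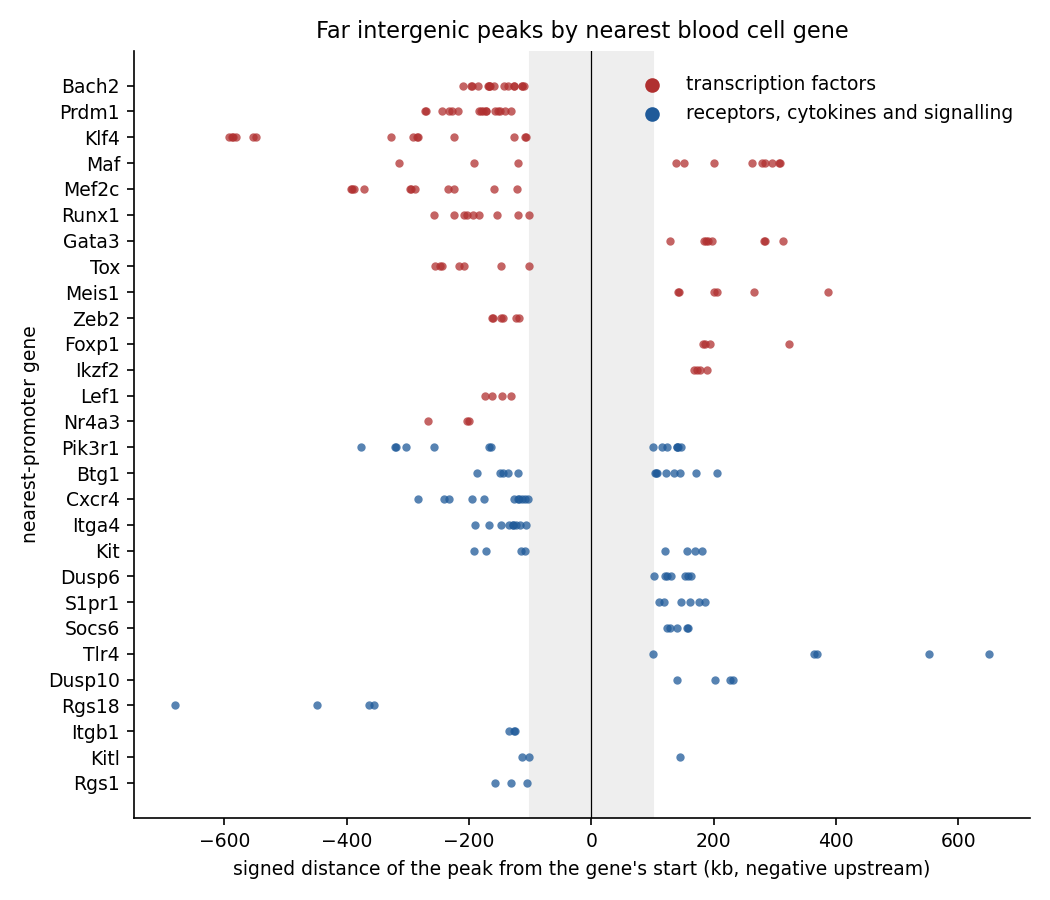
Signed distance in kb of each far intergenic peak from the start of its nearest-promoter gene (negative upstream), for the blood cell transcription factor genes (red) and receptor, cytokine and signaling genes (blue) with at least 3 far peaks. The gray band spans the 100 kb on either side that the rule leaves out. Peaks of Bach2, Prdm1, Runx1 and Cxcr4 all lie on the upstream side, and those of Gata3, Meis1 and Dusp6 all on the downstream side.

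Receptor and signaling genes of blood cells showed groups of similar size. Of 78 genes, 18 (23.1%) were nearest TSS to a far peak and 14 (17.9%) to at least 3, beside 7.33% and 2.86% over all nearest genes. Pik3r1, a subunit of the PI3 kinase, had 14, with 7 on each side, and Btg1, an antiproliferative gene, had 13. Cxcr4, the chemokine receptor that holds stem cells in the marrow, had 11, all upstream, at 104, 109, 113, 119, 121, 127, 175, 195, 232, 241 and 283 kb. Itga4, an integrin of leukocyte homing, had 9 at 106 to 190 kb upstream.

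Kit, the stem cell factor receptor, had 8 far peaks, 4 upstream at 109, 114, 172 and 193 kb and 4 downstream at 120, 156, 170 and 182 kb. Its ligand gene Kitl had 3. Dusp6, a phosphatase of MAP kinase signaling, had 7 at 102 to 162 kb downstream, S1pr1, the receptor for lymphocyte exit, had 6, and Socs6 had 5. Tlr4, the receptor for bacterial lipopolysaccharide, had 5 downstream at 100.2, 363, 370, 553 and 650 kb. Rgs18 had 4 between 356 and 680 kb upstream, Dusp10 had 4, and Itgb1 and Rgs1 had 3 each.

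Genes on the neural and developmental list and on the adhesion and synaptic list also had far peaks. Of 54 neural and developmental transcription factor genes, 18 (33.3%) were nearest TSS to a far peak and 6 (11.1%) to at least 3, namely Sall3 (9), Tshz1 (6), Irx3 (5), Sox5 (4), Sox6 (3) and Sall1 (3). Of 58 adhesion and synaptic genes, 12 (20.7%) had any and 5 (8.62%) had at least 3, among them Cntn5 (6), Robo2 (4), Csmd3 (3) and Robo1 (3). With any far peak the share was 27.1% for the blood cell transcription factors and 33.3% for the neural ones, and with at least 3 it was 20% and 11.1%. Over all nearest genes it was 7.33% with any and 2.86% with at least 3, lower than on each of the lists. The part of gap length in these shares was not tested.

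Far peaks were then linked to target genes by a basal plus extension rule, in which each protein-coding gene reaches from its start toward its neighbors for up to 1 Mb. Under it 1694 of 21000 protein-coding genes (8.07%) were linked to a far peak, and 881 (4.2%) to at least 3. Each peak was linked to both neighbors in 3155 cases (72.6%), to 1 gene in 1096 (25.2%) and to none in 94 (2.16%). The median link spanned 261436 bp.

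By this rule Id2 was linked to 34 far peaks between 137 and 976 kb away, Myc to 30 between 315 and 926 kb, and Ebf1 to 14 between 629 and 977 kb. The genes with most links were Adgrl2 (41), Zfp608 (39), Btg1 (36) and Eea1 (36). On the blood cell transcription factor list 33 of 70 genes (47.1%) had a link and 28 (40.0%) had at least 3, and on the list of neural factors 31 of 54 (57.4%) and 22 (40.7%). On the adhesion list 24 of 58 (41.4%) had a link and 9 (15.5%) at least 3, and on the receptor list 25 of 78 (32.1%) and 22 (28.2%). A linked gene is only the closest candidate, and no expression or contact data were used.

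Some far peaks stood in groups, and the same grouping is not given for other peaks. With peaks joined when their centres lay within 10 kb of the next, the 4345 formed 3127 groups, and 2352 (54.1%) stood alone. There were 48 groups of at least 5, with 283 peaks (6.51%). The largest were 10 peaks in 33.2 kb by Cdh26, linked to it and to 4930591A17Rik, and 10 in 37.6 kb by Gm46545. The latter 10 were linked to Bcl6, the germinal center factor gene, and to Lpp. A group of 9 lay in 33.7 kb by Ppp1r3b and was linked to it and to Tnks. Groups of 8 were linked 1 to both Dusp6 and Csl, and 1 to both the kinase gene Map3k1 and Ankrd55. Of groups of 7, 1 was linked to Mef2c alone, 1 to Pik3r1 and Slc30a5, and 1 to Sema6a and Commd10.

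Far peaks were more isolated than other intergenic peaks. Measured to any peak of the list, the median distance to a neighbor was 8738 bp for far peaks, 5209 bp for the 14648 intergenic peaks 10 to 100 kb from a TSS, and 3306 bp for the 5140 within 10 kb. A neighbor lay within 5 kb for 35.2% of far peaks, 48.8% of the middle set and 65.8% of the near set. No peak lay within 50 kb of 646 far peaks (14.9%), against 2.75% and 1.19% of the other sets. Peaks at gene starts count as neighbors here, and the sets are themselves defined by distance to a TSS. Part of the contrast therefore follows from the rule, and the size of that part was not tested.

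Base composition differed too. The median GC content was 44.9% in far peaks, 47.9% in the middle set and 48.5% in the near set. Within far peaks it fell with distance, from 46.3% at 100 to 150 kb to 41.1% beyond 500 kb. The median share of masked repeat was alike, at 10.0% and 10.4% of bases in the far and middle sets.

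Consensus sites of 11 transcription factor families were then searched on both strands of all 499 bp. The strings were AGATAA for the GATA factors, AGGAAG for ETS, GAGGAAGT for PU.1, which contains the ETS string, AACCACA for RUNX, TTGCNNAA for C/EBP, TGANTCA for AP-1, CAGCTG and CAGGTG for E-boxes, CTTTGAT for TCF and GAAANNGA for IRF, together with a CTCF core. A match is a string and not evidence of binding. At least 1 family matched in all but 100 far peaks (2.3%). This share was not computed for other peaks, and the ETS string alone stood in 62.4% of the whole list.

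CTCF sites were rarer in far peaks than in intergenic peaks 10 to 100 kb from a TSS. They stood in 381 far peaks (8.77%, 95% Wilson interval 7.96 to 9.65%) and in 1649 of 14648 (11.3%, 10.8 to 11.8%), with an odds ratio of 0.758 (Fisher's exact test, two-sided, adjusted p = 8.26e-06 over 11 families). Within quintiles of GC content the Mantel-Haenszel odds ratio was 0.725 (95% interval 0.643 to 0.816). Over all peaks of the list the share was 7.68%, and among peaks within 500 bp of a TSS 1.99%. Sites of CTCF in far peaks sat close to the middle of the peak, with a median offset of 21 bp, and 84.5% of these peaks had one within 50 bp. Intergenic peaks 10 to 100 kb from a TSS were alike, with 19 bp and 83.9%.

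The E-box CAGGTG was also rarer, in 27.5% of far peaks against 33.6% (odds ratio 0.747, Fisher's exact test, adjusted p = 1.54e-13). Lower shares were found in far peaks on 19 of 20 chromosomes, and the ratio within GC quintiles was 0.882 (0.816 to 0.953). The other form, CAGCTG, stood in 28.3% against 31.5% (odds ratio 0.86, Fisher's exact test, adjusted p = 0.000137), but within GC quintiles its ratio was 1.05 (0.97 to 1.13).

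GATA sites were more frequent, in 1355 far peaks (31.2%) against 26.7% (odds ratio 1.24, Fisher's exact test, adjusted p = 6.84e-08), with a higher share on 19 of 20 chromosomes. GC content moved with this difference, and within GC quintiles the odds ratio was 1.05 (0.97 to 1.13). RUNX (19.7% against 17.7%), C/EBP (24.9% against 22.0%) and IRF (42.8% against 39.2%) were also more frequent, with an adjusted p of at most 0.00606 by Fisher's exact test. Within GC quintiles their ratios were 1.06 (0.969 to 1.16), 1.05 (0.971 to 1.14) and 1.07 (1.0 to 1.15), which did not pass the threshold. ETS sites stood in 66.3% against 65.5% (odds ratio 1.03, Fisher's exact test, adjusted p = 0.389), and within GC quintiles the ratio was 1.13 (1.05 to 1.21). For PU.1, AP-1 and TCF the adjusted p was 0.411, 0.0914 and 0.0635. Peaks are not replicates of a condition, and neighboring peaks share sequence context, so these p-values describe the list and not a difference between cells.

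**Figure D5:**
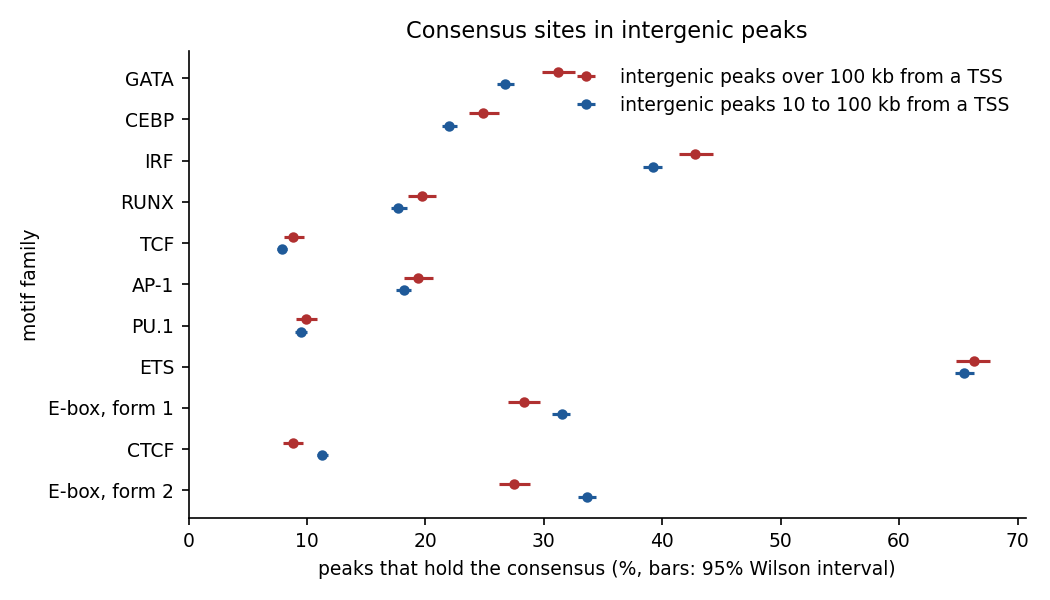
Share of peaks in percent that hold an exact consensus of each of 11 families, for far intergenic peaks (red) and intergenic peaks 10 to 100 kb from a TSS (blue), with bars for the 95% Wilson interval. E-box form 1 is CAGCTG and form 2 CAGGTG. CTCF and both E-box forms lie lower in the far set, whereas GATA, C/EBP, IRF and RUNX lie higher.

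RefSeq lists 2144 functional elements, and 17 far peaks overlapped 15 of them. That was 0.391% of far peaks (95% Wilson interval 0.244 to 0.626%), beside 0.649% (0.531 to 0.792%) of intergenic peaks 10 to 100 kb from a TSS and 0.463% of the whole list. All 15 were enhancers, most of them tested in mouse embryos for the VISTA collection. One lay 113600 bp upstream of Bach2 and was covered by 2 far peaks, another stood between A1bg and Myc, and a further one lay in the Zfp608 desert. The enhancer of the T cell receptor gamma locus and a Hedgehog-responsive enhancer near Hhip were the only 2 from outside that collection.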

How the data were processed

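The authors aligned ATAC-seq reads to mm10 with the ENCODE pipeline, left out multimapping reads, took the reproducible peaks of each cell type, merged them with chromVAR into non-overlapping peaks, and annotated these with HOMER 4.10.2. Positions and TSS distances of the peaks were taken in bp, as deposited by the authors, with no normalization. The deposited peak score was 0 in all peaks and was not used. Peaks were not compared between cell types, because the list is pooled.

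Genes, sequence and repeat masking came from RefSeq GRCm38.p6, the same assembly as mm10, with GENCODE M21 as a second annotation. Deserts, densities, links (2 kb upstream, 1 kb downstream, up to 1 Mb) and consensus matches were computed in Python 3.11.15 with pandas 2.3.3, scipy 1.17.1 and statsmodels 0.14.6, after tests on simulated data. The test of consensus shares was Fisher's exact test, two-sided, with Benjamini-Hochberg adjustment over the 11 families, and GC strata used the Mantel-Haenszel odds ratio. Wilson intervals are 95% and cover counting error only.

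The peaks, gene lists and tests were chosen with earlier results of these data known. Named were the 15 nearest genes and flanks of the 10 gaps with most far peaks, the 5 farthest peaks, and list genes with at least 3. Of the list genes, 1 is not reported here. Other genes, such as those of the longest and densest deserts, links and groups, were named after their values were seen. The alternatives concerned the distance limit, annotation, desert length, masking and consensus search.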

Additional observations from a re-analysis of the deposited data

How the results depend on the processing

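The count of far peaks is set by the limit and the annotation: 4345 became 8475 with a limit of 50 kb, 1632 with 200 kb and 1178 with all RefSeq starts. The share in deserts, 40.5%, was 16.8% for deserts of at least 1 Mb, 72.4% for at least 250 kb, 62.1% for gaps between protein-coding genes and 11.2% for gaps between all RefSeq genes. The density of 6.27 per Mb was 10.4 per Mb of unmasked sequence and 6.94 without chromosome Y, an alternative chosen after seeing the data. With curated starts (3870), or the first annotation column alone (5563), the count stayed within 1.5 times, as did the number of linked genes at 500 kb (1534) and with all curated genes (1966). Of 11 motif families 7 passed the threshold, against 3 within GC quintiles. Those 3 were CTCF and CAGGTG, which were among the 7, and ETS, which was not. Within GC quintiles the odds ratio of CAGCTG turned to 1.05. With 1 mismatch the ratio of ETS turned to 0.593 and of IRF to 0.89, and the cause was not tested. Neither of these ratios passed the threshold (Fisher's exact test, adjusted p = 0.537 and 0.696). The central 200 bp, 1 mismatch, 1 peak per cluster and autosomes alone gave 8, 9, 8 and 7 families. Groups of at least 5 far peaks numbered 48 and, at a somewhat larger joining distance that had been tried first, 69, and both distances were chosen after seeing the data. No paired analysis was possible because the list is pooled and holds no value per replicate.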
